A study of Mus musculus with 4 samples.

Results

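The comparison described here is the loss of Fancd2 in cells that already lacked Foxo3a. It sets the array labelled Fancd2 and Foxo3a double knockout (DKO) against the array labelled Foxo3a knockout (Foxo3aKO), as a difference of log2 signals for each gene. These are 2 of the 4 arrays of the study, each from 1 genotype. The other 2 arrays hold the same loss on the other background, Fancd2 knockout (Fancd2KO) and wild type (WT). Genes came from probe sets with exactly 1 gene symbol, and a gene with several was represented by the brightest, by its mean signal on the 4 arrays. Of 22180 genes measured this way, 12041 had a signal at or above 5.51 log2 on at least 1 array, the median of all gene values, and were compared. That level is called the floor below.

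The RNA came from sorted mouse bone marrow cells and was hybridised to Affymetrix Mouse Gene 2.0 ST arrays, with probes spread over each transcript. The mice were 2 months old. Mononuclear cells were sorted as Lin-, c-Kit+, Sca-1+ and CD34-, which selects for stem cells with long-term activity. The name SLAM cells is also used for them in the labels, without the antigens CD150 and CD48 that usually stand behind it. Both groups compared are labelled Foxo3a knockout, so that loss is shared by each DKO and Foxo3aKO value below. The knockout alleles, the deleted exons, the lineage antibodies and the number and sex of the mice behind each array are not given in the sources used here. Each genotype had 1 array, so the differences have no replicate check and none carries a test.

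As background, Fancd2 acts at the centre of the Fanconi anaemia pathway: it is ubiquitinated at stalled replication forks and directs repair of crosslinked DNA. Foxo3, which encodes Foxo3a, is a forkhead transcription factor held in the cytoplasm by growth factor signalling, and it is known for roles in quiescence, oxidative stress resistance and the upkeep of the stem cell pool. Both genes are known to be needed for normal haematopoietic stem cell function in mice.

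The targeted genes did not settle the labels. Fancd2 stood at 5.84 log2 in DKO and 6.67 in Foxo3aKO, beside 6.08 in Fancd2KO and 6.56 in WT. Its DKO minus Foxo3aKO difference was -0.83, and it was lower on both arrays labelled as lacking it than on both others. Foxo3 stood at 6.51 in DKO, 6.64 in Foxo3aKO, 6.72 in Fancd2KO and 6.62 in WT, so all 4 arrays lay close together, the knockout arrays included. Neither the deleted exons nor those covered by these probe sets were known, so neither signal checks a deletion.

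Genes measured more than once show how far probe sets on the same 2 arrays disagree. For 728 genes over the floor with 2 probe sets, the DKO minus Foxo3aKO differences of both probe sets disagreed with an SD of 0.50 log2. The disagreement was under 0.95 in 95% of these genes. A 2-fold difference (1 on the log2 scale) lies just outside that limit and the Fancd2 difference inside it. Both probe sets read the same RNA on the same arrays, so the limit leaves out variation between arrays, sorts and mice. Of 23 genes that were 2-fold apart and had 2 probe sets, 21 had the same sign in both and 8 were 2-fold apart in both. Xist, which is expressed from the inactive X chromosome, stood at 10.84 in DKO and 10.83 in Foxo3aKO. Eif2s3y, a Y-linked gene, stood at 8.50 in DKO and 8.81 in Foxo3aKO, so both arrays carried X-inactivation and Y-linked signals.

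Signal from background control probes differed between the arrays. The array carries 23 such probe sets, which match no mouse transcript and are ordered by the number of G and C bases per probe. The 6 with at least 20 such bases had a median of 6.70 log2 in DKO and 6.06 in Foxo3aKO, beside 6.51 in Fancd2KO and 6.59 in WT. For the 8 with at most 10 such bases the medians were 2.09 in DKO and 2.01 in Foxo3aKO. All 23 were higher in DKO, by 0.03 to 0.79. The base composition of each gene's probes was not known, and the part of this offset in the gene differences was not tested.

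**Figure D1:**
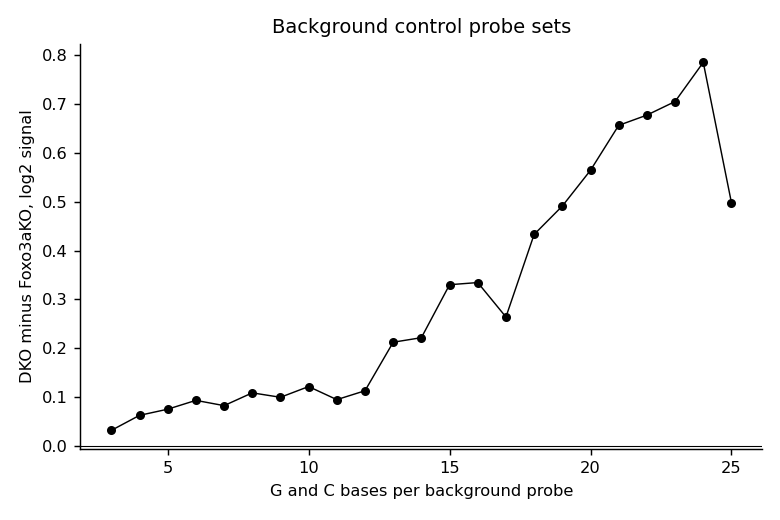
Difference in log2 signal (DKO minus Foxo3aKO, y axis) of the 23 background control probe sets by the number of G and C bases per probe (x axis). Each point is 1 probe set; the difference is 0.03 at the poor end and reaches 0.79 among the richest.

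Across the genome most genes had similar signals in both arrays. The median DKO minus Foxo3aKO difference of the 12041 genes was 0.03, and 90% of genes lay between -0.67 and 0.62. Of these genes 6497 were higher and 5537 lower in DKO, the split beside which list counts below can be read. At least 2-fold higher in DKO were 142 genes, or 1.18% of the 12041, and at least 2-fold lower were 263 genes, or 2.18%. At a 4-fold difference the counts were 30 higher and 38 lower. Of the higher genes 93 had a DKO signal above that array's G and C rich background, and 81 lay over the floor in both arrays. Of the lower genes 224 had a Foxo3aKO signal above that array's background, and 174 lay over the floor in both. The Foxo3aKO signal was farther from WT than the DKO signal in 152 of the 263 lower and 47 of the 142 higher genes. The DKO signal was the farther one in 111 lower and 95 higher genes. Gene models without a settled name, pseudogenes, small RNAs, antigen receptor segments and chemosensory receptors make up 37 of the higher and 63 of the lower genes and are not named.

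**Figure D2:**
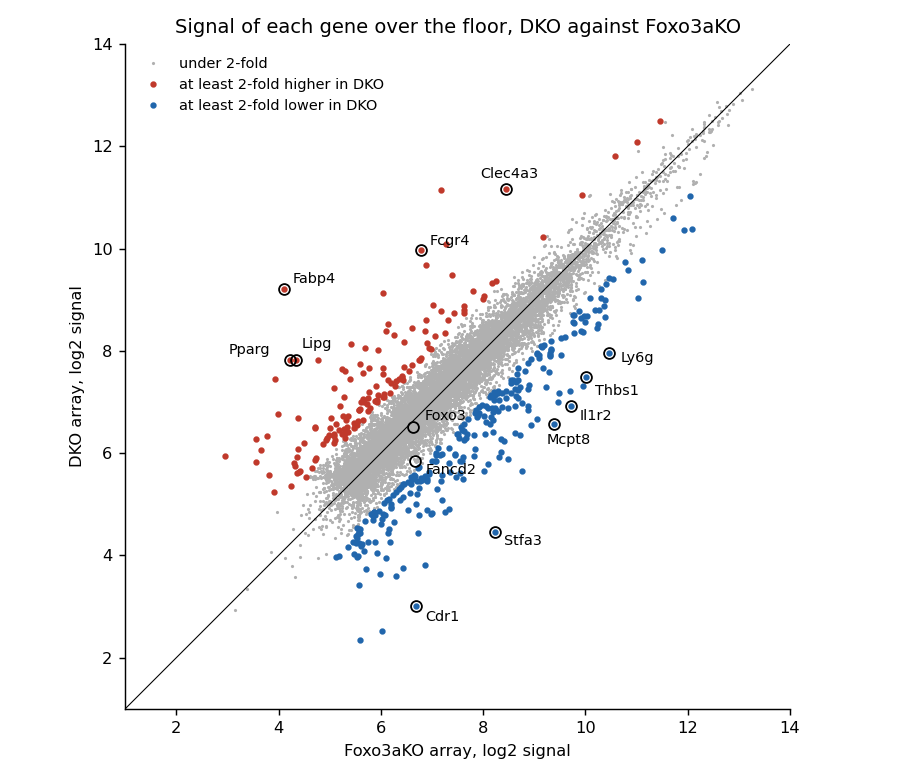
Log2 signal in DKO (y axis) against Foxo3aKO (x axis) for the 12041 genes over the floor. Red points are the 142 genes at least 2-fold higher in DKO, blue points the 263 at least 2-fold lower, and the line marks equal signal. Fabp4, at 9.22 in DKO and 4.10 in Foxo3aKO, lies farthest above the line.

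The genes highest in DKO were dominated by surface receptors and lipid genes of non-classical monocytes, the patrolling monocytes that are Ly6C-low and carry Fc gamma receptor IV. Of 34 marker genes of these cells, 32 were measured, 27 were higher in DKO and 15 were at least 2-fold higher, while 1 was at least 2-fold lower. Among all 22180 measured genes, 0.825% were at least 2-fold higher and 1.54% at least 2-fold lower, as background for each marker list below. The 32 genes here and the 30 neutrophil genes below all lay over the floor, where these shares were 1.18% and 2.18%. The median difference of the non-classical monocyte list was 0.92, against 0.04 over all measured genes. The log2 of its summed signal was 13.98 in DKO and 13.11 in Foxo3aKO. The list was written with earlier results of these data in view and is not independent evidence of its direction. In RNA from a sorted population, fewer cells of a type and less RNA per cell cannot be told apart, here and in every marker list below.

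Fatty acid handling genes led the whole comparison. Fabp4, a fatty acid binding protein of macrophages and adipocytes, stood at 9.22 log2 in DKO, 4.10 in Foxo3aKO, 7.47 in Fancd2KO and 5.16 in WT. The DKO minus Foxo3aKO difference was 5.12, and 3.71 when signals under the floor were raised to it. Pparg, the lipid-activated nuclear receptor that controls Fabp4, stood at 7.83 in DKO and at 4.23, 4.50 and 4.50 in Foxo3aKO, Fancd2KO and WT, a difference of 3.60. Only the DKO array had a Pparg signal over the floor. Lipg, which encodes endothelial lipase, stood at 7.81 in DKO, 4.34 in Foxo3aKO, 5.46 in Fancd2KO and 4.28 in WT, a difference of 3.48. Of 22 genes of lipid uptake and Pparg action over the floor, 29 having been listed, 19 were higher in DKO, 5 of them at least 2-fold, and the median was 0.39. Apolipoproteins were among these, with Apoc2 at 8.45 in DKO and 6.62 in Foxo3aKO and Apoe at 7.68 in DKO and 6.46 in Foxo3aKO. Without the members shared with the non-classical monocyte list, the median of the other 18 was 0.35.

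Immune receptors of non-classical monocytes followed. Fcgr4, the activating receptor for IgG immune complexes, stood at 9.97 in DKO, 6.78 in Foxo3aKO, 5.71 in Fancd2KO and 5.90 in WT, a difference of 3.19. Cd300e, an activating immunoglobulin superfamily receptor, stood at 9.13 in DKO, 6.04 in Foxo3aKO, 5.95 in Fancd2KO and 5.48 in WT, a difference of 3.09. For both genes DKO was the highest of the 4 arrays. Adgre4, an adhesion G protein-coupled receptor of the family of Adgre1, stood at 9.69 in DKO and 6.89 in Foxo3aKO, and at 5.76 in Fancd2KO and 7.33 in WT. Ace, which encodes angiotensin-converting enzyme, stood at 7.82 in DKO and at 4.77, 4.77 and 5.09 in Foxo3aKO, Fancd2KO and WT. Further members at least 2-fold higher were Bcl2a1a, a survival protein of the Bcl2 family with near-identical copies (2.37), Treml4 (1.88), the integrin Itgax (1.82) and the transcription factor Pou2f2 (1.10).

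Not every marker of these cells was 2-fold higher. Cx3cr1, the fractalkine receptor used to identify them, stood at 9.33 in DKO and 8.63 in Foxo3aKO, a difference of 0.70. Spn, or CD43, differed by 0.69 and Itgal by 0.51. Nr4a1, the nuclear receptor that this lineage requires in mice, ran the other way at 9.03 in DKO and 10.09 in Foxo3aKO, a difference of -1.05.

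Within receptor families the members separated. Of the Clec4 lectin receptors, Clec4a1 stood at 10.09 in DKO and 7.27 in Foxo3aKO, and Clec4a3 at 11.17 in DKO and 8.44 in Foxo3aKO. Clec4b1 stood at 6.28 in DKO and 3.57 in Foxo3aKO, a difference of 2.71 that was 0.77 with the Foxo3aKO signal raised to the floor. Clec4b2 was less than 2-fold higher, at 7.10 in DKO and 6.70 in Foxo3aKO. At least 2-fold lower were Clec4a2 at 7.67 in DKO and 8.67 in Foxo3aKO, Clec4d at 5.85 in DKO and 7.56 in Foxo3aKO, and Clec4e at 7.22 in DKO and 8.44 in Foxo3aKO. Clec4f lay at the floor or under it in both arrays, and Clec4a4, Clec4g and Clec4n lay under it in both. Of the Fc gamma receptors, Fcgr4 and Fcgr1 were higher by 3.19 and 1.46, the inhibitory Fcgr2b by 0.64, and Fcgr3 was lower with a difference of -0.61. Clec4a genes resemble each other in sequence, and shared probes would make their single values uncertain.

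Genes shared by all monocytes and macrophages did not move one way. Of 32 measured of 34, 15 were higher and 17 lower, with 4 at least 2-fold in each direction and a median of -0.08. The 4 higher ones were Csf1r, the receptor tyrosine kinase for M-CSF (8.78 in DKO, 7.18 in Foxo3aKO), the macrophage antigen Adgre1 (8.39 in DKO, 6.86 in Foxo3aKO), Fcgr1 (6.58 in DKO, 5.12 in Foxo3aKO) and Spic (6.38 in DKO, 5.08 in Foxo3aKO). The Spic difference was 0.87 with its Foxo3aKO signal raised to the floor. The 4 lower ones were the integrin Itgam (9.43 in DKO, 10.46 in Foxo3aKO), the lipopolysaccharide co-receptor Cd14 (5.73 in DKO, 6.75 in Foxo3aKO), Ifi30 (7.10 in DKO, 8.13 in Foxo3aKO) and the beta-glucan receptor Clec7a (7.19 in DKO, 8.21 in Foxo3aKO). Complement C1q genes, a macrophage product chosen after their values were seen, were higher. C1qb stood at 8.01 in DKO and 5.93 in Foxo3aKO, C1qa at 7.31 in DKO and 5.90 in Foxo3aKO, and C1qc at 6.15 in DKO and 5.34 in Foxo3aKO.

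**Figure D3:**
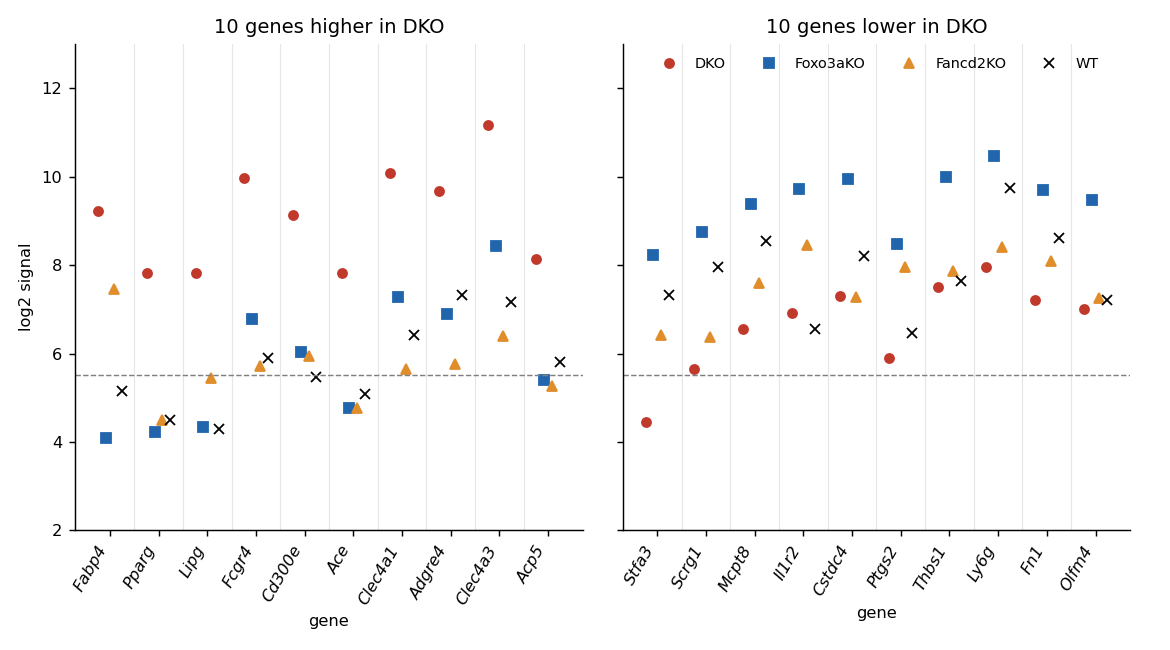
Log2 signal (y axis) of 10 genes higher and 10 genes lower in DKO on each of the 4 arrays, 1 symbol per array; the dashed line is the floor. The 10 genes of each panel were picked from the 15 largest differences in that direction. In the left panel the DKO signal is the highest of the 4 for each gene, and in the right panel the Foxo3aKO signal is. Of genes left out, Rsl1 was highest in WT, and Cdr1 and Cpe were highest in Fancd2KO.

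The remaining genes of the 15 highest were of other kinds. Fcrl5, an Fc receptor-like protein known from B cells, stood at 7.45 in DKO and at 3.94, 4.08 and 4.30 in Foxo3aKO, Fancd2KO and WT. Other B cell genes did not follow it, since of 18 measured of 20 listed 9 were higher and 9 lower, with a median of -0.11. Acp5, the tartrate-resistant acid phosphatase of osteoclasts and macrophages, stood at 8.13 in DKO and 5.41 in Foxo3aKO. The membrane protein Ms4a4a stood at 6.76 in DKO and 3.98 in Foxo3aKO, a difference of 2.78 that was 1.25 with the Foxo3aKO signal raised to the floor. Rsl1, a KRAB zinc finger repressor, stood at 6.33 in DKO, 3.77 in Foxo3aKO, 6.14 in Fancd2KO and 6.36 in WT, so that Foxo3aKO was the array apart. Its difference of 2.56 was 0.82 with the Foxo3aKO signal raised to the floor. Psma5, a proteasome subunit, had a difference of 2.99 in 1 probe set and 0.01 in its other probe set, so its place among the highest rests on 1 probe set, for which raising the Foxo3aKO signal to the floor left 0.44.

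Genes of classical monocytes and of neutrophils were lower in DKO than in Foxo3aKO. Of 23 classical monocyte genes 20 were measured, 18 were lower and 10 at least 2-fold lower, with 0 at least 2-fold higher and a median of -1.0. Fn1, which encodes fibronectin, stood at 7.21 in DKO, 9.70 in Foxo3aKO, 8.10 in Fancd2KO and 8.61 in WT. F13a1, the coagulation factor XIII A chain, stood at 6.67 in DKO, 9.05 in Foxo3aKO, 7.40 in Fancd2KO and 7.88 in WT. The chemokine receptor Ccr2 stood at 7.04 in DKO, 8.21 in Foxo3aKO, 7.12 in Fancd2KO and 7.84 in WT. In each case DKO was lowest and Foxo3aKO highest of the 4 arrays. Irf8, a transcription factor of monocyte and dendritic cell development, had a difference of -1.70 in 1 probe set and -0.66 in the other. Leaving out the 6 genes shared with the neutrophil list gave 13 of 14 lower and a median of -1.12. The log2 of the summed signal of the list was 13.66 in DKO and 14.68 in Foxo3aKO. Its median signal was 7.34 in DKO, 9.02 in Foxo3aKO, 7.98 in Fancd2KO and 8.10 in WT.

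Of 30 neutrophil genes, all measured and over the floor, 25 were lower in DKO and 12 at least 2-fold lower, with 0 at least 2-fold higher and a median of -0.82. The log2 of the summed signal was 15.52 in DKO and 16.20 in Foxo3aKO. The median signal of the list was 10.2 in DKO, 10.8 in Foxo3aKO, 10.3 in Fancd2KO and 10.3 in WT, so Foxo3aKO was the array apart. Ly6g, the neutrophil surface antigen, stood at 7.96 in DKO, 10.47 in Foxo3aKO, 8.40 in Fancd2KO and 9.75 in WT. Olfm4, a granule glycoprotein, stood at 7.0 in DKO, 9.46 in Foxo3aKO, 7.26 in Fancd2KO and 7.20 in WT. Ly6g was thus low on both arrays labelled Fancd2 knockout, whereas Olfm4 was high on the Foxo3aKO array alone. Cxcr2, the chemokine receptor that draws neutrophils out of the marrow, stood at 8.39 in DKO and 9.90 in Foxo3aKO. Retnlg, a resistin-like gene of mature neutrophils, stood at 9.97 in DKO and 11.50 in Foxo3aKO.

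Granule genes separated by the stage at which they are made, a split noted after the values were seen. Primary granule proteins are made early, in promyelocytes, and their 4 genes were all slightly higher in DKO, by 0.03 for Ctsg, 0.12 for Mpo, 0.27 for Prtn3 and 0.32 for Elane. Elane stood at 11.11 in DKO and 10.79 in Foxo3aKO, and Mpo at 11.77 in DKO and 11.65 in Foxo3aKO. The 9 genes of granules made later, Ltf, Camp, Lcn2, Ngp, Mmp8, Mmp9, Olfm4, Cd177 and Hp, were all lower in DKO, with differences of -2.47 to -0.62, a median of -1.02 and 5 at least 2-fold lower. Mmp8, neutrophil collagenase, stood at 10.36 in DKO and 11.92 in Foxo3aKO, and Ltf, lactoferrin, at 11.03 in DKO and 12.05 in Foxo3aKO. S100a8, a cytosolic protein and one of the brightest genes on the arrays, stood at 12.91 in DKO and 13.07 in Foxo3aKO. Stefins, cysteine protease inhibitors of myeloid cells, were also lower. Each of their 6 genes over the floor was at least 2-fold lower and the median was -2.48. Among them were Stfa3 at 4.45 in DKO and 8.23 in Foxo3aKO and Cstdc4 at 7.31 in DKO and 9.95 in Foxo3aKO. These genes lie in a cluster of near-identical copies, which makes the value of any 1 of them uncertain.

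Promoter sequences are shown for genes of these myeloid groups, because a common motif stands in promoters of granule genes on both sides of that split. The motif searched, GAGGAAGT on either strand, is a binding motif of PU.1, a transcription factor of myeloid cells. It was present in 3.20% of the 32851 promoters of the table, each reaching from 250 bases before a start site to 50 bases after it, and in 3.28% of the first promoters of 9504 genes over the floor. The share was 9.0% in 200 promoters of genes at least 2-fold lower in DKO and 8.51% in 94 at least 2-fold higher. Of 25 neutrophil genes with a listed promoter 8 held the motif, and of 25 non-classical monocyte genes 4 did. Of the 8 neutrophil genes, Ly6g, Olfm4, Mmp8 and Itgb2l were at least 2-fold lower in DKO, whereas S100a8, Mpo, Prtn3 and Elane had differences of -0.16 to 0.32. Below are Fcgr4, higher in DKO, Ly6g and Olfm4, lower, and Elane, close to equal, from RefSeq on build GRCm38.p6, 5′ to 3′ on the gene's strand. Ly6g, Olfm4 and Elane were picked from the genes that held the motif. Capitals mark the PU.1 motif and, where present, the NF-kB and C/EBP motifs described below.
Fcgr4, chr1:171018676-171018975, plus strand: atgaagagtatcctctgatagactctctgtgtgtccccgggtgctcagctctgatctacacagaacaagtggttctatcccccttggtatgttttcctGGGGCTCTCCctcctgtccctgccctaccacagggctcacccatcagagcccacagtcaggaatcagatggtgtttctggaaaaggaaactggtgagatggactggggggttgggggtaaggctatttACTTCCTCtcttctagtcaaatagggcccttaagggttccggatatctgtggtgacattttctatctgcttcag
Ly6g, chr15:75155011-75155310, plus strand: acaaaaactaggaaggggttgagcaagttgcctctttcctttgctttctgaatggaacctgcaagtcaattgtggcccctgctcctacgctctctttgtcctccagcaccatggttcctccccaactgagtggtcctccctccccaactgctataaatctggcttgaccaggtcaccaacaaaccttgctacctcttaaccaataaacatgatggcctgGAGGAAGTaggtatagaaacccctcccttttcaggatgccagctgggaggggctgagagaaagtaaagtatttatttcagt
Olfm4, chr14:80000052-80000351, plus strand: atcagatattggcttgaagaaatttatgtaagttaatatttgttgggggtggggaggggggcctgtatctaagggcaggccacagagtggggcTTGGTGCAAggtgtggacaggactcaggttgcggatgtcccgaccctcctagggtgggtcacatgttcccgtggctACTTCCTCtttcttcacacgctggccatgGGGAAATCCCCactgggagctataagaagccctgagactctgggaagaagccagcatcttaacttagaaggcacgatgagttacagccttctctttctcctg
Elane, chr10:79886062-79886361, plus strand: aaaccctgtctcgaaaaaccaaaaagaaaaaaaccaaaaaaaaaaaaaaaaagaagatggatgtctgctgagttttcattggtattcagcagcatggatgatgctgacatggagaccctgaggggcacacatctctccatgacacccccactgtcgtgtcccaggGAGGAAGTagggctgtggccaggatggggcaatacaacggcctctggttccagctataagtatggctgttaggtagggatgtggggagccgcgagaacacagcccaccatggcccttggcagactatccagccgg
The PU.1 match began 24 bases before the start site in Fcgr4, 31 in Ly6g, 81 in Olfm4 and 85 in Elane. Fcgr4 also held an NF-kB match beginning 152 bases before the start, and Olfm4 a C/EBP match at 157 bases and a pair of overlapping NF-kB matches at 52 and 51 bases. No PU.1 match overlapped another motif in these 4. Letters that match a motif are a description of the sequence and show no binding.

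Eosinophil genes were lower in DKO as well. Of 11 eosinophil genes 9 were measured, 8 were lower, 4 of them at least 2-fold, and the median was -0.85. Prg3, an eosinophil granule protein, stood at 6.35 in DKO, 8.73 in Foxo3aKO, 7.84 in Fancd2KO and 9.88 in WT. Epx, eosinophil peroxidase, stood at 6.35 in DKO, 7.82 in Foxo3aKO, 6.92 in Fancd2KO and 9.62 in WT. Both were lower on the arrays labelled as lacking Fancd2, and highest in WT. Mast cell and basophil genes had a median near 0, at -0.13, but the larger differences were all lower. Of 18 measured, 7 were higher and 11 lower, with 4 at least 2-fold lower and 0 at least 2-fold higher. Among all measured genes 1.54% were at least 2-fold lower. Under the floor in both arrays lay 8 of the 18. The basophil protease Mcpt8 stood at 6.56 in DKO, 9.39 in Foxo3aKO, 7.60 in Fancd2KO and 8.53 in WT. Prss34, another basophil protease, stood at 6.84 in DKO and 8.87 in Foxo3aKO, and Hdc at 8.26 in DKO and 9.52 in Foxo3aKO. Gata2, which serves both stem cells and basophils, was higher, at 9.17 in DKO and 8.20 in Foxo3aKO.

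Immediate early genes, which cells transcribe within minutes of a stimulus, were lower in DKO almost throughout. Of 42 genes over the floor of 43 listed, 39 were lower and 10 at least 2-fold lower, with 0 at least 2-fold higher and a median of -0.71. Among all 12041 genes over the floor 5537 were lower and 2.18% at least 2-fold lower. Egr1 stood at 8.53 in DKO, 10.24 in Foxo3aKO, 10.71 in Fancd2KO and 8.57 in WT. The AP-1 subunit Fos stood at 8.36 in DKO, 9.77 in Foxo3aKO, 9.50 in Fancd2KO and 8.47 in WT. The nuclear receptor Nr4a2 stood at 7.89 in DKO, 9.31 in Foxo3aKO, 9.92 in Fancd2KO and 6.62 in WT. For all 3, DKO and WT were the low arrays and the single knockouts the high ones.

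The members shown of several families mostly took the same direction. Nr4a1, Nr4a2 and Nr4a3 had differences of -1.05, -1.42 and -1.19. Fos, Fosb and Fosl2 had -1.41, -1.40 and -0.88, and Jun, Junb and Jund had -0.91, -0.70 and -1.0, although a second probe set of Jund gave -0.32. Of the Egr genes, Egr1 had -1.71, Egr2 -0.89 and Egr3 -0.54, while Egr4 stood near the floor at 5.57 in DKO and 5.49 in Foxo3aKO. The Kruppel-like factors Klf2 and Klf6 had -1.41 and -1.19. The largest exception was Myc, at 9.39 in DKO and 8.85 in Foxo3aKO.

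Cytokine and NF-kB response genes were lower less uniformly. Of 34 over the floor of 38 listed, 26 were lower, 9 of them at least 2-fold, and the median was -0.45. Il1r2, the decoy receptor for interleukin-1, stood at 6.92 in DKO, 9.72 in Foxo3aKO, 8.45 in Fancd2KO and 6.55 in WT. Ptgs2, or cyclooxygenase-2, stood at 5.89 in DKO, 8.49 in Foxo3aKO, 7.96 in Fancd2KO and 6.48 in WT. Ccl2, the chemokine that recruits monocytes, stood at 6.02 in DKO, 8.35 in Foxo3aKO, 7.21 in Fancd2KO and 5.39 in WT. Each had its highest signal in Foxo3aKO. The inflammasome sensor Nlrp3 (-1.74), the interleukin-1 receptor antagonist Il1rn (-1.66) and the neutrophil chemoattractant Cxcl2 (-1.58) were also at least 2-fold lower.

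The promoters of Cxcl2 and Fos are shown for these 2 groups, since each held an NF-kB match, and Cxcl2 was picked for it, with the same source, build and direction as above and the match in capitals. NF-kB matches, searched by that factor's consensus on both strands, stood in 5.81% of all promoters in the table and 6.80% of those of genes over the floor. Of 27 promoters of the cytokine list 11 held one, and of 35 promoters of the immediate early list 6 did. The cytokine list was chosen to hold NF-kB response genes, so its share is not independent of that choice. Matches stood in 7.0% of 200 promoters of genes at least 2-fold lower and 8.51% of 94 at least 2-fold higher.
Cxcl2, chr5:90903649-90903948, plus strand: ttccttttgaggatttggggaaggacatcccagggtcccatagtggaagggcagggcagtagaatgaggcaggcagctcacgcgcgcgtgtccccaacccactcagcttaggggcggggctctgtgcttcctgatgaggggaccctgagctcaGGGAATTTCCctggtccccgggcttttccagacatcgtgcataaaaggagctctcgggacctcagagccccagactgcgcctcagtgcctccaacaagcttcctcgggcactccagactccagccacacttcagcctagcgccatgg
Fos, chr12:85473640-85473939, plus strand: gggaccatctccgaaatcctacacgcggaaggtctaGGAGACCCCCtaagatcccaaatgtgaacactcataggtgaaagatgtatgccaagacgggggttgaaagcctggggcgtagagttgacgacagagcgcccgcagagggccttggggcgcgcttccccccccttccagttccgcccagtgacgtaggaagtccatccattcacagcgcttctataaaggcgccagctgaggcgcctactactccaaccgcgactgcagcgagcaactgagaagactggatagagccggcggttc
The match began 97 bases before the start site in Cxcl2 and 214 bases before it in Fos. For the immediate early and non-classical monocyte lists the promoters of 3 genes each, 6 in all, were searched for all 7 motifs. These genes had the largest differences after Egr1 in the immediate early list and Fabp4 in the other. Egr1 and Fabp4 themselves were not among the 6. Of the 6 promoters 2 held any motif, Fos and Fcgr4. Those of Nr4a2, Klf2, Pparg and Cd300e held none. Of the 11 cytokine genes with a match, Cxcl2 was at least 2-fold lower, 8 others were lower by less, and Cxcl10 and Nfkb2 were higher by 0.30 and 0.61. Among 7 motifs counted in 8 sets of promoters, the other shares in the cytokine and immediate early sets included 4 of 27 and 1 of 35 for AP-1 (TGANTCA), 0 of 27 and 2 of 35 for the cyclic AMP response element (TGACGTCA), and 0 of 27 and 2 of 35 for the CArG box of serum response factor. The cyclic AMP element stood in 3.19% of promoters of genes over the floor, the CArG box in 1.40% and C/EBP in 1.57%. For FOXO (GTAAACA) they were 1 of 27 and 2 of 35, and for C/EBP (TTGCNNCAA) 0 of 27 and 1 of 35. In the promoters of genes at least 2-fold lower, FOXO matches stood in 7 of 200, and in those at least 2-fold higher in 2 of 94, beside 2.54% of promoters of genes over the floor. AP-1 matches stood in 12% of promoters of genes at least 2-fold lower and 8.51% of those at least 2-fold higher, beside 5.22% of genes over the floor.

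Stress and metabolic genes gave a few large values in lists that otherwise stayed near 0. Mt2, a metallothionein that binds zinc and copper, stood at 8.59 in DKO, 6.89 in Foxo3aKO, 8.02 in Fancd2KO and 7.08 in WT, and Hmox1, heme oxygenase-1, at 8.87 in DKO and 7.62 in Foxo3aKO. Slc7a11, the cystine transporter, ran the other way, at 5.81 in DKO and 7.34 in Foxo3aKO. The antioxidant list as a whole had 18 of 31 genes higher and a median of 0.07. The inducible Hsp70 genes were lower, with Hspa1a at 8.19 in DKO and 9.32 in Foxo3aKO and Hspa1b at 8.77 in DKO and 9.87 in Foxo3aKO, while the median of 19 heat shock genes was 0.00. These 2 genes are near-identical copies. The glucose transporter Slc2a3 was at 7.61 in DKO and 8.82 in Foxo3aKO, and none of the other 28 glycolysis and hypoxia genes was 2-fold apart. Among 64 respiratory chain and 55 ribosomal protein genes 0 were 2-fold apart, and both medians were 0.04.

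Erythroid genes were higher in DKO. Of 21 measured of 31 listed, 19 were higher, 3 of them at least 2-fold, with a median of 0.51 and a log2 summed signal of 12.35 in DKO and 11.78 in Foxo3aKO. Car1, carbonic anhydrase 1, stood at 9.48 in DKO, 7.39 in Foxo3aKO, 7.45 in Fancd2KO and 8.87 in WT. Rhag, the Rh-associated glycoprotein, stood at 7.56 in DKO, 5.65 in Foxo3aKO, 5.89 in Fancd2KO and 6.36 in WT. For both genes the 2 single knockouts were the low arrays. Cldn13 was at 6.86 in DKO and 5.60 in Foxo3aKO, and the erythroid regulator Gata1 at 6.48 in DKO and 5.51 in Foxo3aKO. Klf1, the erythroid Kruppel-like factor, was lower at 5.59 in DKO and 6.06 in Foxo3aKO.

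Stem cell genes differed little. Of 49 over the floor, 29 were higher and 20 lower, with a median of 0.09 and 1 gene at least 2-fold apart, near the 1.18% and 2.18% of all genes. That gene was Mycn, at 6.51 in DKO and 5.34, under the floor, in Foxo3aKO. Gata2, Gfi1b and Lyl1, transcription factors of stem and progenitor cells, were higher by 0.96, 0.91 and 0.89. Tek, the angiopoietin receptor of quiescent stem cells, was lower at 5.74 in DKO and 6.44 in Foxo3aKO. Genes of surface antigens were looked up as a check of the labels, Kit and Cd34 of the gate and Procr, Slamf1 and Cd48 outside it. The gene of Sca-1 is not among them. Kit stood at 10.43 in DKO and 10.57 in Foxo3aKO, Procr at 8.05 in DKO and 7.80 in Foxo3aKO, and Slamf1, which encodes CD150, at 7.81 in DKO and 7.51 in Foxo3aKO. Cd34 RNA stood at 10.36 in DKO and 9.67 in Foxo3aKO although the gate was CD34-negative, and Cd48 at 8.68 in DKO and 8.13 in Foxo3aKO. Genes of multipotent and lymphoid progenitors had a median of -0.26, with Cd69, an early activation antigen, at 6.91 in DKO and 8.36 in Foxo3aKO and Flt3 at 6.67 in DKO and 7.37 in Foxo3aKO.

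Genes of the pathway that Fancd2 belongs to were close to equal. Of 37 Fanconi and homologous recombination genes over the floor of 40 listed, 25 were higher and 12 lower in DKO, 0 were 2-fold apart and the median was 0.09. Mad2l2, a polymerase zeta and shieldin subunit also known as Rev7, was the highest at 8.50 in DKO and 7.63 in Foxo3aKO, and Fancd2 itself the lowest. The core complex gene Fancg stood at 6.89 in DKO and 6.42 in Foxo3aKO. Checkpoint and other repair genes had 0 of 37 genes 2-fold apart and a median of 0.12, with H2ax, the histone phosphorylated at DNA breaks, at 11.02 in DKO and 10.06 in Foxo3aKO.

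Cell cycle lists were equally flat. Of 43 DNA replication genes 29 were higher and 0 were 2-fold apart, with a median of 0.11, and of 44 mitosis genes 22 were higher and 22 lower with a median of 0.02. Among 23 CDK inhibitor and quiescence genes only Mxd1, a Myc antagonist, was 2-fold apart, at 8.80 in DKO and 10.26 in Foxo3aKO. Cdkn1a, the p21 inhibitor, stood at 7.48 in DKO, 8.14 in Foxo3aKO, 10.22 in Fancd2KO and 7.21 in WT, so Fancd2KO was the array apart. Genes of the p53 response had 16 of 31 higher and a median of 0.00, with Phlda3 at 6.63 in DKO and 5.54 in Foxo3aKO and the death receptor Fas at 5.53 in DKO and 6.63 in Foxo3aKO. Genes known as FOXO targets, both arrays being labelled as lacking Foxo3a, had 14 of 34 higher and a median of -0.12, and Klf2 was the only one 2-fold apart. Klf2 is also an immediate early gene.

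**Figure D4:**
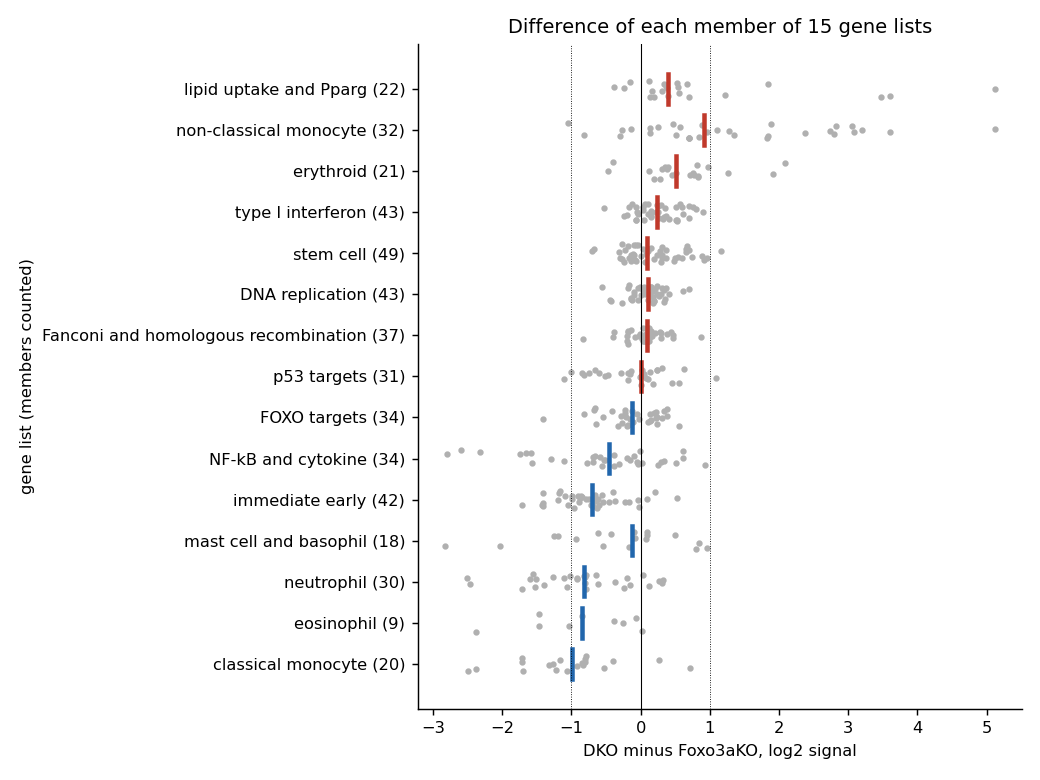
DKO minus Foxo3aKO difference in log2 signal (x axis) of each member (grey points) of 15 gene lists, with the median as a coloured bar and the number of members counted in brackets; dotted lines mark a 2-fold difference. Medians run between 0.92 for non-classical monocyte genes and -1.0 for classical monocyte genes, and the lists of DNA repair, replication and p53 lie near 0.

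Interferon-stimulated genes were mildly and broadly higher. Of 43 over the floor of 51 listed, 33 were higher in DKO, 0 were 2-fold apart and the median was 0.24. Lgals3bp stood at 10.18 in DKO and 9.28 in Foxo3aKO, the ISG15 protease Usp18 at 7.05 in DKO and 6.26 in Foxo3aKO, and the immunoproteasome subunit Psmb8 at 9.10 in DKO and 8.40 in Foxo3aKO. Class II antigen presentation genes, grouped after their values were seen, were all higher without reaching 2-fold, with a median of 0.49 over 6 genes. Of these, H2-Aa stood at 8.25 in DKO and 7.59 in Foxo3aKO.

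Markers of other lineages the sample could hold mostly gave single values, apart from T and NK cell genes. Siglech, a plasmacytoid dendritic cell receptor, stood at 4.81 in DKO and 6.99 in Foxo3aKO, within a dendritic cell list of 18 genes with a median of 0.16. Of 22 T and NK cell genes 14 were lower and 8 higher, with 5 at least 2-fold lower, 0 at least 2-fold higher and a median of -0.21. Among all measured genes 1.54% were at least 2-fold lower. The 5 included the chemokine Ccl5 at 7.32 in DKO and 8.90 in Foxo3aKO and Cd3d at 7.40 in DKO and 8.64 in Foxo3aKO. Only 3 of the 5 reached the floor on any array, and 12 of the 22 lay under it in both arrays. In the megakaryocyte and platelet list the median of 22 genes was 0.16 and only Thbs1, thrombospondin-1, was 2-fold apart, at 7.49 in DKO, 10.003 in Foxo3aKO, 7.86 in Fancd2KO and 7.65 in WT. Of 21 endothelial and stromal genes 15 lay under the floor in both arrays and 0 were 2-fold apart.

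A set of neural genes was lower in DKO. Of 21 over the floor of 35 listed, 17 were lower, 8 of them at least 2-fold, and the median was -0.75. The list was drawn from genes seen to differ in these data and shows nothing beyond them. Cdr1 stood at 3.0 in DKO, 6.69 in Foxo3aKO, 7.69 in Fancd2KO and 3.0 in WT. Cpe, carboxypeptidase E of secretory granules, stood at 3.76 in DKO, 6.43 in Foxo3aKO, 7.29 in Fancd2KO and 4.47 in WT, and Snap25, a synaptic vesicle fusion protein, at 3.96 in DKO, 6.11 in Foxo3aKO, 7.43 in Fancd2KO and 3.97 in WT. All 3 lay under the floor in DKO and WT. After raising signals under the floor to that level, their differences were -1.19, -0.92 and -0.60. Among 13 imprinted genes Meg3 and Rian were at least 2-fold lower, but both lay under the floor in the 2 arrays compared, and their differences were 0.00 once raised to it.

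Of the 15 lowest genes, 4 are not yet described. Klk1, tissue kallikrein, stood at 2.51 in DKO, 6.03 in Foxo3aKO, 3.86 in Fancd2KO and 5.53 in WT, and Cstdc6, a stefin relative, at 3.59 in DKO and 6.29 in Foxo3aKO. Their DKO signals lay under the floor, and the differences were -0.52 for Klk1 and -0.79 for Cstdc6 once raised to it. Astx5, a multi-copy gene, had a difference of -2.41. Scrg1 stood at 5.65 in DKO, 8.76 in Foxo3aKO, 6.38 in Fancd2KO and 7.95 in WT and was bright on both arrays that are not labelled Fancd2 knockout. The 20 protein-coding genes nearest to Fancd2 in gene order were compared for an effect of the targeted locus. Of 13 over the floor, 6 were higher, 0 were 2-fold apart, and differences ran from -0.33 to 0.55 with a median of -0.04.

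The same loss on the other background gave mostly other genes. Of those 2-fold apart on both backgrounds, more ran in opposite directions than in the same direction. Fancd2KO minus WT shares no array with DKO minus Foxo3aKO, but all 4 arrays were processed together and share their probe sets. Against WT, 202 of the 12041 genes reached 2-fold higher in Fancd2KO (1.68%) and 163 reached 2-fold lower (1.35%). Higher on both backgrounds were 3 genes, 2.11% of the 142 and 1.49% of the 202. Lower on both were 22 genes, 8.37% of the 263 and 13.5% of the 163. Higher on the Foxo3aKO background and lower on the WT background were 16 genes, 11.3% of the 142 and 9.82% of the 163. Lower on the Foxo3aKO background and higher on the WT background were 37 genes, 14.1% of the 263 and 18.3% of the 202. All these overlaps but the first were well above the 1.68% and 1.35% of all genes on the WT background. Across the genes, which are not independent replicates, the differences had a Pearson correlation of -0.06 and a Spearman correlation of -0.04.

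The few genes higher with Fancd2 loss on both backgrounds were led by Fabp4, with differences of 5.12 on the Foxo3aKO background and 2.31 on the WT background. Lipg had 3.48 and 1.17 and Mt2 1.70 and 0.94 on the same backgrounds. Both signals behind the Lipg value on the WT background lay under the floor. Id3, the third gene past 2-fold on both, lay under the floor in DKO and Foxo3aKO. Once dim signals were raised to the floor, Fabp4 alone was 2-fold higher on both. Tubb6, a beta-tubulin, had 0.92 and 0.88. Genes lower on both included eosinophil granule proteins and members of the ribonuclease A family. Prg3 had -2.38 and -2.04, Rnase12 -2.30 and -2.34, Ear6 -1.47 and -2.37, Epx -1.46 and -2.71 and Scrg1 -3.10 and -1.58 for DKO minus Foxo3aKO and Fancd2KO minus WT. The 263 genes lower in DKO had a median of -0.17 in Fancd2KO minus WT, with 155 below 0, and the 142 higher genes a median of -0.19, with 97 below 0, while 6245 of the 12041 genes lay below 0 there. The non-classical monocyte list, with a median of 0.92 on the Foxo3aKO background, had -0.18 on the WT background, where 3 of 32 genes were at least 2-fold higher. The neutrophil list had medians of -0.82 and -0.36 on the Foxo3aKO and WT backgrounds, and the eosinophil list -0.85 and -1.47.

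**Figure D5:**
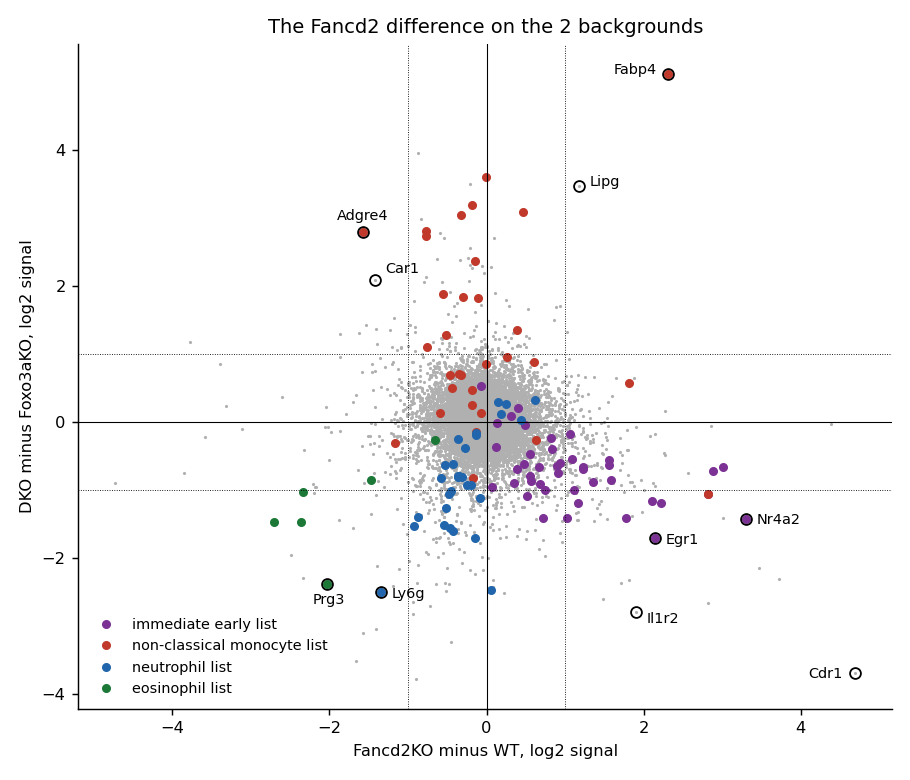
DKO minus Foxo3aKO difference (y axis) against Fancd2KO minus WT difference (x axis), both in log2 signal, for the 12041 genes over the floor; coloured points are members of 4 lists over the floor and dotted lines mark 2-fold. Fabp4 lies at 5.12 and 2.31, eosinophil genes lie low on both axes, and immediate early genes lie below 0 on the y axis and mostly above 0 on the x axis.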

How the data were processed

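RNA of sorted marrow cells was hybridised to 4 arrays, 1 per genotype. The authors deposited 1 table of log2 signals for 41345 probe sets, and the submitters' processing notes name Affymetrix Expression Console as the tool. Its version, normalisation and summarisation and the genome build are not given in the sources used here. At every rank the arrays were within 0.0889 log2 of the mean of that rank, so the deposited normalisation was kept. The number of arrays limits the precision, and no p-value is given.

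GEO's platform annotation named the probe sets, 23521 with 1 symbol, 1814 with several and 16010 with none; 23328 were matched by Entrez identifier to RefSeq of GRCm38.p6 and 0 symbols differed. Values were subtracted on the log2 scale, and counts used a difference of 1. Pathway lists (22) used genes over the floor, and marker lists (12) all measured genes. The subtraction was run on simulated data with known differences, which checks the arithmetic and not the reliability of the calls. Python 3.11.15, pandas 2.3.3, numpy 2.4.6, scipy 1.17.1 and limma 3.58.1 under R 4.3.3 were used.

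The genes, lists and comparisons were chosen with earlier results of these data known. Named are Fancd2 and Foxo3, the 15 largest differences in each direction and the 6 largest opposed between backgrounds in each direction. The 8 largest shared by both backgrounds in each direction are also named, except Il10, Shtn1 and Msl3l2. Up to 6 members per pathway list and 4 per marker list are named, and the receptor and transcription factor families described. Set after values were seen were the limit of 20 bases for a background probe set rich in G and C, the leaving out of Y RNAs from named genes, the tolerances of the alternatives, the motif patterns for NF-kB and the CArG box, the promoters of Cxcl2, Ly6g, Olfm4 and Elane, the granule, stefin, C1q and class II groups, and further named genes: the checks of the gate, Cx3cr1, Spn, Itgal, other list members named beside the largest, and Flt3. Alternatives were 3 normalisations, 3 filters, dim signals raised to the floor, the mean of probe sets, fold thresholds of 1.5 and 3, and lists without shared members.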

Additional observations from a re-analysis of the deposited data

Results flagged for a closer look

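For the genes and lists below, the arrays labelled Fancd2 knockout lay on opposite sides of their controls on the 2 backgrounds. Each value is a log2 difference of 1 pair of arrays, and the difference between backgrounds was not tested. Brackets hold DKO minus Foxo3aKO and Fancd2KO minus WT. Higher on the Foxo3aKO background and lower on the WT background were Adgre4 (2.80 and -1.58), Sh2d1b1, an adaptor of SLAM family receptors (1.43 and -1.54), Car1 (2.09 and -1.42), the sulfate transporter Slc26a1 (1.35 and -1.23), Adgre1 (1.53 and -1.17) and the histone gene H2ac21 (1.16 and -1.40; its other probe set gave 0.64 for DKO minus Foxo3aKO). Once dim signals were raised to the floor, Slc26a1 had 0.79 and -0.26 and Sh2d1b1 1.43 and -0.35, so neither stayed 2-fold apart on both backgrounds. Histone genes with near-identical copies can share probes.

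Lower on the Foxo3aKO background and higher on the WT background were Cdr1 (-3.69 and 4.69), Cpe (-2.67 and 2.82), the calmodulin regulator Pcp4 (-2.30 and 3.72), Snap25 (-2.15 and 3.46), Il1r2 (-2.79 and 1.90) and Ccl2 (-2.33 and 1.81). For Cdr1, Cpe and Snap25 the DKO and WT signals lay under the floor, and with these raised to it the brackets hold -1.19 and 2.18 for Cdr1, -0.92 and 1.78 for Cpe and -0.60 and 1.92 for Snap25.

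Among lists the immediate early genes had medians of -0.71 for DKO minus Foxo3aKO and 0.91 for Fancd2KO minus WT, with 39 of 42 lower on the Foxo3aKO background and 41 of 42 higher on the WT background. Interferon-stimulated genes had 0.24 and -0.21, erythroid genes 0.51 and -0.31, and the neural list, drawn from these data, -0.75 and 1.43.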

How the results depend on the processing

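Under 10 alternatives 0 results turned direction. Counts of genes at least 2-fold higher and lower in DKO than in Foxo3aKO, 142 and 263, were 164 and 241 after quantile normalisation, 153 and 241 with each array centred on its median, and 139 and 263 after cyclic loess. They were 183 and 341 with no filter, 69 and 171 with a filter at the upper quartile (7.25 log2), 93 and 224 where the brighter array had to exceed its G and C rich background, 103 and 202 with signals under the floor set to it, and 142 and 259 with the mean of probe sets. At 1.5-fold they were 702 and 785, and at 3-fold 46 and 78. The share of higher genes among both ran from 28.8% to 40.5%, against 35.1%. Of genes higher on both backgrounds, 5 were found with no filter, 1 with dim signals raised, 41 at 1.5-fold and 1 at 3-fold. Genes lower on both numbered 124 at 1.5-fold and 4 at 3-fold. Genes higher on the Foxo3aKO background and lower on the WT background numbered 9 with the stricter filter, 9 with the background filter, 8 with dim signals raised, 91 at 1.5-fold and 0 at 3-fold; the reverse numbered 146 at 1.5-fold and 8 at 3-fold. The NF-kB and cytokine median was -0.67 with the stricter filter and -0.58 with the background filter, the mast cell and basophil median 0 with dim signals raised, and the classical monocyte median -1.12 without genes shared with the neutrophil list. The filters and thresholds change which genes are tested; no other cause was tested. Of 275 list medians 14 moved by at least 0.1 log2. Of 1602 values of named genes 38 moved by more than the probe set SD, 35 of them with dim signals raised, so differences that start under the floor are the least certain. Centring within bins of transcript base composition was not run, since no transcripts were in the reference used here. No paired analysis was possible because each genotype had 1 array.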

Other observations

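Genes of signalling and cell surface outside the lists also stood among those higher in DKO, all chosen here after their values were seen. Rcan1, an inhibitor of calcineurin, stood at 7.66 in DKO, 6.05 in Foxo3aKO, 6.03 in Fancd2KO and 6.17 in WT, so DKO was the array apart. Bmp4 had a difference of 1.14, the receptor Lifr 1.12 (0.87 for Bmp4 and 0.69 for Lifr with Foxo3aKO signals raised to the floor), the interleukin-10 receptor chain Il10ra 1.25 and the inhibitory ligand Pdcd1lg2 1.27.

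Several innate receptors and proteases were lower in DKO than in Foxo3aKO beyond those of the lists. Trem1, an amplifier of myeloid inflammation, stood at 6.91 in DKO and 8.88 in Foxo3aKO, beside 7.87 in Fancd2KO and 7.13 in WT. The chemokine receptor Ccr1 stood at 5.65 in DKO and 8.02 in Foxo3aKO, beside 6.29 in Fancd2KO and 6.83 in WT. The metalloprotease Adam8 stood at 6.4 in DKO and 8.63 in Foxo3aKO, and Chil1, a chitinase-like protein, at 7.30 in DKO and 9.24 in Foxo3aKO. In each of these 4 genes Foxo3aKO was the highest of the 4 arrays.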
